A study of Rattus norvegicus with 19 samples.

Results

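The genes described here are S100b, Mbp, Sox10, Cdh19, Ngfr, Gfra3, Egfl8 and Gldn, 8 Schwann cell and nerve genes of the 17455 gene symbols counted in rat heart RNA. They were chosen by their measured values: S100b changed in opposite directions with the disease and with the dual treatment, and the other 7 are known Schwann cell genes whose counts moved with it. Those 2 contrasts are therefore given as descriptions of the 8 genes without a p-value. So are the comparisons that contain one of them or are built from their groups. These are the disease by week interaction, the interaction of the drugs, EMPA + PFD against HFpEF, and untreated against HFpEF. Where a count of the 8 genes past the thresholds of the fit stands there beside the share over all genes, it is partly set by the choice and nothing is read from it. Every other comparison shares at least 1 group with these, so the choice also bears on its signs, p-values and counts. All 8 were among the 12388 genes that passed the filter on low counts.

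Schwann cells are the glia of peripheral nerves. They wrap axons, and the myelinating ones build a compacted membrane sheath from proteins such as Mbp, under the control of the transcription factor Sox10. In the heart they accompany sympathetic and parasympathetic fibres and surround the ganglia that lie mainly on the atria.

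Bulk RNA sequencing was performed on hearts of Sprague-Dawley rats, 24 weeks old at the start, labelled as wildtype males, and the methods name the left ventricle. HFpEF (heart failure with preserved ejection fraction) was induced for 5 weeks with L-NAME, a nitric oxide synthase inhibitor, at 0.5 g/L in drinking water plus a high-fat diet. The 5-week groups were untreated healthy rats (control 5w, n = 3) and rats at the end of induction (HFpEF, n = 3). The 9-week groups were healthy rats (control 9w, n = 3) and HFpEF rats gavaged for 4 weeks with PBS (untreated, n = 3), empagliflozin at 0.35 g/kg/d (EMPA, n = 2), pirfenidone at 0.3 g/kg/d (PFD, n = 2) or both (EMPA + PFD, n = 3). Empagliflozin inhibits the renal glucose transporter SGLT2 and pirfenidone is an antifibrotic drug.

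The 19 libraries held between 7430539 and 13017754 counts, with a median of 9951011. Several stood apart from their groups. Col2a1, the main collagen of cartilage, had 15993 counts in HFpEF replicate 1 and 6071 in EMPA replicate 2 but between 0 and 20 in the other 17 libraries. Myl4, an atrial myosin light chain, had 19668 counts in untreated replicate 2, 13853 in control 9w replicate 3 and 2702 in control 9w replicate 1, against at most 436 elsewhere. Control 5w replicate 1 had 5269 counts of the collagen gene Col1a1, against 127604 and 100202 in replicates 2 and 3. It had 227532 counts of the cardiomyocyte gene Myh6, against 55161 and 67442. The Y-linked gene Eif2s3y had 0 counts in 7 libraries labelled male, namely HFpEF replicates 1 and 3, all untreated and both PFD libraries, and 613 to 1321 counts in the other 12. RT1-CE16, a class I histocompatibility gene, had 0 to 3 counts in all control 5w, HFpEF and EMPA libraries and 308 to 922 in all others. Eif2s3y thus separates untreated from control 9w, EMPA and EMPA + PFD, and RT1-CE16 separates control 9w from control 5w, EMPA from untreated, and HFpEF from untreated and from EMPA + PFD, and in these comparisons the treatment or age cannot be told apart from whatever the 2 genes mark. Levels below are in CPM, counts scaled to a common library size after TMM scaling. Comparisons are also given without libraries among the 5 named here for Col2a1 or Myl4. Below they are called the 5 libraries with the most cartilage or atrial counts, which refers to these 2 genes only. Other atrial genes rank the libraries otherwise. Nppa had 74677 counts in control 5w replicate 2, which was kept, and 32111 in control 9w replicate 1. Leaving out all 5 libraries keeps 1 library in control 9w (replicate 2) and 1 in EMPA, which the fit then takes to vary like the other groups.

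S100b encodes a calcium-binding protein of glia that is also made by chondrocytes and adipocytes. Its level was 3.01, 4.73 and 3.66 CPM in control 5w replicates 1 to 3 and 61.2, 2.29 and 9.38 CPM in the HFpEF replicates. At 9 weeks it was 3.72, 2.58 and 4.59 CPM in control 9w and 2.53, 13.5 and 4.00 CPM in the untreated group. It was 3.60 and 30.4 CPM with EMPA, 1.20 and 0.823 CPM with PFD, and 1.06, 1.08 and 1.36 CPM with EMPA + PFD. HFpEF replicate 1 and EMPA replicate 2, the libraries with Col2a1, were the 2 highest, followed by untreated replicate 2. The same 2 libraries were the highest in 4 of 6 smooth muscle and pericyte genes, with Tagln at 422.0 and 593.5 CPM against at most 182.6 elsewhere, Acta2 at 385.0 and 539.3 against at most 185.5, Myh11 at 344.7 and 839.1 against at most 281.5, and Cnn1 at 20.4 and 41.5 against at most 14.96. The other 2, Kcnj8 and Rgs5, which mark pericytes, were at 34.6 and 194.1 CPM in HFpEF replicate 1, the lowest and the second lowest of the 19 libraries, and at 77.5 and 388.8 CPM in EMPA replicate 2. HFpEF replicate 2 lay below every control 5w library, so the 5-week groups overlapped.

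By group mean the order of S100b was HFpEF (24.3 ± 32.2 CPM, SD, n = 3), EMPA (17 ± 18.9, n = 2), untreated (6.67 ± 5.94, n = 3), control 5w (3.80 ± 0.87, n = 3), control 9w (3.63 ± 1.01, n = 3), EMPA + PFD (1.17 ± 0.17, n = 3) and PFD (1.01 ± 0.27, n = 2). The ranges of all neighbours in this order overlapped except control 9w (2.58 to 4.59 CPM) and EMPA + PFD (1.06 to 1.36 CPM). The 5 libraries that received PFD, alone or with EMPA, held 0.823 to 1.36 CPM of S100b, below the 2.29 CPM of the lowest of the 14 libraries without it. S100b was the 1 gene of the 8 with this pattern, which 0.347% of all tested genes showed, and the split was chosen after its values were seen. In these 5 libraries the S100b counts were 8 to 13, so each value rests on few reads.

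**Figure D1:**
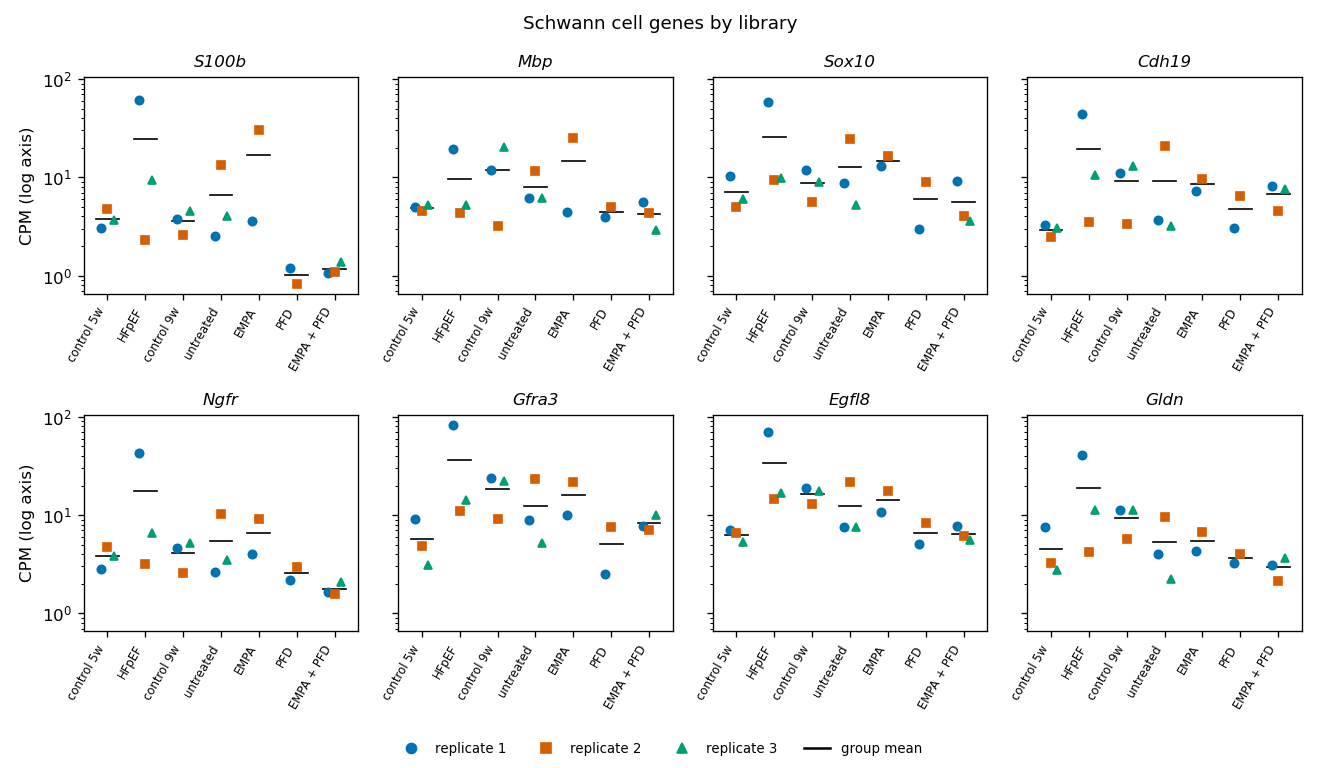
Level of each of the 8 Schwann cell genes in CPM (log axis) in the 7 groups, with 1 point per library shaped by replicate number and a bar at the group mean. HFpEF replicate 1 is the highest point in every panel but that of Mbp, and the S100b points of PFD and EMPA + PFD lie at or below 1.36 CPM.

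The promoters of S100b, the gene the set is built around, and of Egfl8, the member closest to it after Ngfr in its profile over the libraries, are shown as the sequences next to a listed start of each of 2 genes that moved together. They are RefSeq sequences of build GRCr8, from 250 bases before to 50 after the start, whereas the counts were made on rn6. Capitals mark ACAAAG or ACAATG on either strand (CTTTGT and CATTGT when read on the other), core letters bound by SOX family factors. No matches overlapped in the genes described here. The S100b window lies at chr20:12381032-12381331, minus strand, and that of Egfl8 at chr20:4137803-4138102, plus strand. The Egfl8 gene spans 4137531 to 4140632 in this build, so its window lies inside the gene and its start is an internal one.
S100b: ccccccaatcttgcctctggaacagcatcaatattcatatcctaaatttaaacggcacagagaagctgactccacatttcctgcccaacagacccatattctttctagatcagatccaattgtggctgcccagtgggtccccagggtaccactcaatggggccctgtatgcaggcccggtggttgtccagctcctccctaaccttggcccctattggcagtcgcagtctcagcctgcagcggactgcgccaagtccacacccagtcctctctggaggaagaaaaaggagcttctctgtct
Egfl8: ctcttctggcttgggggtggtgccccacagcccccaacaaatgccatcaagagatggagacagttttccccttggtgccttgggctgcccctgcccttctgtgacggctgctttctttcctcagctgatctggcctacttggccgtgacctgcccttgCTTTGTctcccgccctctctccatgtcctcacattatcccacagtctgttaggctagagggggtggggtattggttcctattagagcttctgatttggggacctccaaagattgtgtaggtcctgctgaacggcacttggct
The S100b window held neither motif, and the Egfl8 window held 1, as CTTTGT, whose first letter lies 92 bases before the start. The table held entries for 6 of the 8 genes (none was matched for Sox10 and Ngfr), and a motif was found for Egfl8 and for 1 of the 2 Mbp starts. Of all 33469 promoters of the same 300 bases, 29.13% held at least 1 of the motifs (18.78% ACAAAG and 13.22% ACAATG).

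Mbp, whose protein holds the layers of compact myelin together, had the smallest difference between the 5-week groups. It measured 4.99, 4.50 and 5.25 CPM in control 5w and 19.2, 4.31 and 5.18 CPM in HFpEF. At 9 weeks it measured 11.7, 3.20 and 20.4 CPM in control 9w and 6.12, 11.6 and 6.22 CPM in the untreated group. With treatment it was 4.39 and 25.0 CPM (EMPA), 3.94 and 4.94 CPM (PFD) and 5.56, 4.30 and 2.93 CPM (EMPA + PFD). EMPA replicate 2 was the highest library, followed by control 9w replicate 3 and HFpEF replicate 1, and 2 of 3 HFpEF libraries lay within the control 5w range or below it.

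Sox10, the transcription factor that specifies and maintains these glia, reached 10.4, 4.97 and 5.97 CPM in control 5w and 58.0, 9.35 and 9.74 CPM in HFpEF. It reached 12.0, 5.66 and 8.87 CPM in control 9w, 8.65, 24.7 and 5.16 CPM in untreated and 12.9 and 16.5 CPM in EMPA libraries. It was 2.96 and 9.05 CPM with PFD and 9.11, 4.06 and 3.55 CPM with EMPA + PFD. HFpEF replicate 1 was more than double any other library, and the remaining HFpEF libraries fell inside the control 5w range.

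Of the adhesion genes, Cdh19, a cadherin of the Schwann cell lineage, was at 3.30, 2.48 and 3.02 CPM in control 5w and 44.6, 3.48 and 10.5 CPM in HFpEF. It was at 10.9, 3.32 and 13.0 CPM in control 9w, 3.69, 20.9 and 3.16 CPM in untreated, 7.32 and 9.72 CPM in EMPA, 3.07 and 6.38 CPM in PFD and 8.16, 4.54 and 7.52 CPM in EMPA + PFD libraries. All HFpEF and all control 9w libraries were above all control 5w libraries, by as little as 3.32 against 3.30 CPM at 9 weeks. Gldn encodes gliomedin, which gathers sodium channels at nodes of Ranvier. It was at 7.54, 3.26 and 2.79 CPM in control 5w and 41.1, 4.22 and 11.3 CPM in HFpEF, and its 5-week groups overlapped. It was at 11.4, 5.66 and 11.2 CPM in control 9w, 4.01, 9.66 and 2.21 CPM in untreated, 4.26 and 6.68 CPM in EMPA, 3.29 and 4.01 CPM in PFD and 3.07, 2.15 and 3.66 CPM in EMPA + PFD libraries.

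Of the receptors, Ngfr, the p75 receptor for neurotrophins, followed S100b most closely. It was at 2.83, 4.73 and 3.82 CPM in control 5w and 42.8, 3.21 and 6.52 CPM in HFpEF, and at 4.62, 2.58 and 5.18 CPM in control 9w and 2.64, 10.3 and 3.48 CPM in untreated libraries. It was at 4.00 and 9.23 CPM with EMPA, 2.19 and 2.98 CPM with PFD and 1.66, 1.55 and 2.09 CPM with EMPA + PFD, whose 3 libraries were the lowest of all 19. Gfra3 encodes the co-receptor that binds artemin and signals through Ret. It was at 9.04, 4.81 and 3.10 CPM in control 5w and 83.0, 11.1 and 14.2 CPM in HFpEF, so the 5-week groups did not overlap. It was at 23.8, 9.22 and 22.0 CPM in control 9w, 8.97, 23.1 and 5.16 CPM in untreated, 10.1 and 21.7 CPM in EMPA, 2.52 and 7.61 CPM in PFD and 7.69, 7.05 and 10.03 CPM in EMPA + PFD libraries.

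Egfl8, a secreted protein with EGF-like repeats, was at 7.07, 6.59 and 5.33 CPM in control 5w and 70.6, 14.5 and 16.97 CPM in HFpEF. It was at 18.95, 13.0 and 17.4 CPM in control 9w, 7.60, 21.9 and 7.48 CPM in untreated, 10.8 and 17.6 CPM in EMPA, 5.04 and 8.23 CPM in PFD and 7.69, 6.10 and 5.64 CPM in EMPA + PFD libraries. Every HFpEF and control 9w library exceeded every control 5w library. Egfl8 overlaps Agpat1, and S100b overlaps Dip2a, in the GRCr8 annotation, and whether strand was used in counting is not given in the sources used here. Dip2a stayed between 35.5 and 70.0 CPM, with a Pearson r of 0.23 with S100b over the 19 libraries, and Agpat1 between 54.5 and 90.4 CPM, with r of -0.55 with Egfl8.

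Across the libraries, 7 of the 8 genes had their highest level in HFpEF replicate 1 (all but Mbp), where 16.1% of all 12388 tested genes also had theirs. In that library Ngfr was 4.16 times, Gldn 3.61 times, Gfra3 3.49 times, Egfl8 3.22 times, Sox10 2.35 times, Cdh19 2.14 times and S100b 2.02 times the level of the next highest library. The summed level of the 8 genes was 420.7 CPM there, 136.9 CPM in EMPA replicate 2 and 135.7 CPM in untreated replicate 2, against 24.2 to 102.7 CPM in the other 16. In bulk RNA, more cells of a type and more RNA per cell cannot be told apart.

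The summed cartilage and bone genes and the 4 smooth muscle genes above were highest in the 2 libraries highest in this sum. The leukocyte genes Ptprc (138.8 CPM), Cd68 (73.2), Adgre1 (71.1), Csf1r (238.9) and Cd3e (9.47) were also highest in HFpEF replicate 1. So were the mesothelial genes Msln (16.7 CPM, next 4.79) and Krt19 (5.45 CPM, next 4.63). The leukocyte genes Cd79b and Ncf1 and the mesothelial gene Wt1 were highest in other libraries. The 6 smooth muscle and pericyte genes summed to 1401 CPM in HFpEF replicate 1 and 2480 CPM in EMPA replicate 2, and to 614.6 to 1134 CPM in the other 17. The 9 cartilage and bone genes in the count files (among them Col2a1, Comp, Ibsp, Spp1 and Chad) summed to 2203 CPM in HFpEF replicate 1 and 1735 CPM in EMPA replicate 2, and to between 17.1 and 207.9 CPM in the remaining 17 libraries. In HFpEF replicate 1 Comp, a cartilage matrix protein, had 5600 counts and Ibsp, a bone sialoprotein, 996, and 8 of the 9 genes were detected (Matn1 was at 0). The 7 atrial genes summed to 23563 CPM in control 9w replicate 3 and 15005 CPM in untreated replicate 2, against 91.3 to 6152 CPM elsewhere. Of 7 adipocyte genes, Adipoq had 0 to 31 counts in a library and 5 others at most 51, while Cfd, a complement factor, had 52 to 771 (55.3 CPM in HFpEF replicate 1 and 36.7 CPM in untreated replicate 2). The 7 genes, Cfd included, summed to 26.2 to 60.1 CPM in HFpEF and 15.4 to 21.4 CPM in control 5w. At 9 weeks they summed to 10.8 to 43.4 CPM in untreated and 6.50 to 14 CPM in EMPA + PFD libraries, with the highest values of both disease groups in HFpEF replicate 1 and untreated replicate 2. The part of these tissues in the Schwann cell gene levels was not tested. Of 4 genes of melanocytes, another neural crest lineage with Sox10, Tyrp1 was at 0 in all libraries, Tyr had at most 1 count and Mlana at most 2, while Mitf, a transcription factor that other cells also make, had 475 to 1196.

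**Figure D2:**
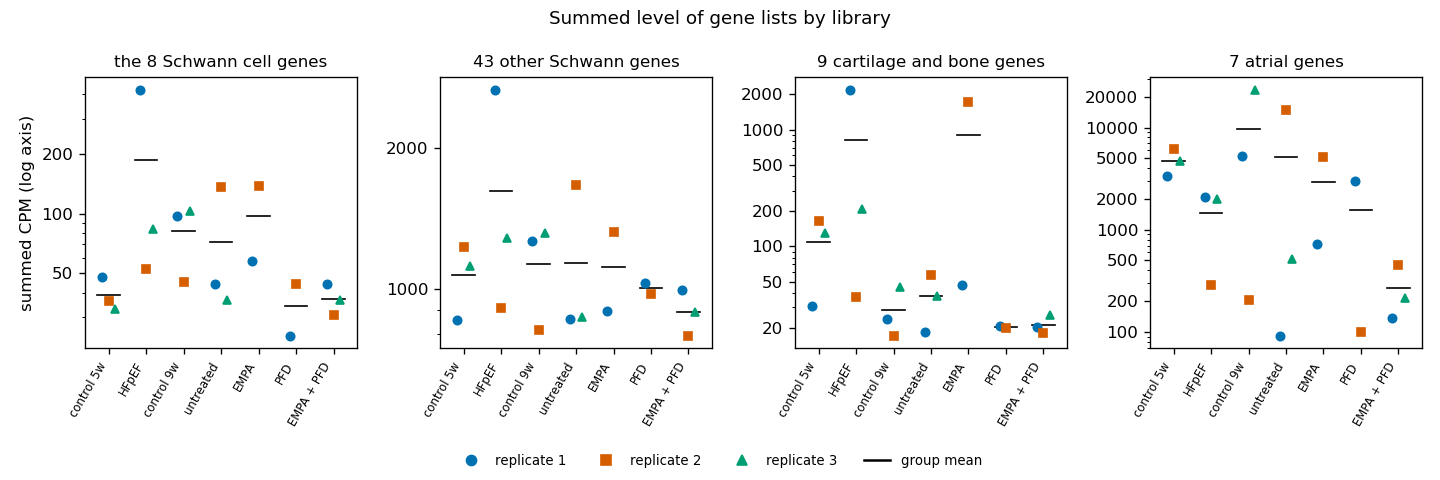
Summed CPM (log axis) of the 8 Schwann cell genes, 43 other Schwann genes, 9 cartilage and bone genes and 7 atrial genes in the 7 groups, with 1 point per library and a bar at the group mean. HFpEF replicate 1 is highest in the Schwann and cartilage panels (420.7, 2676 and 2203 CPM), and untreated replicate 2 is high in the Schwann and atrial panels (135.7, 1674 and 15005 CPM).

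The first comparison, termed disease establishment, asks what L-NAME and high-fat diet changed at 5 weeks (HFpEF against control 5w). It is one of the 2 contrasts used in choosing the genes, so the values describe them. The log2 fold change was positive for all 8: 2.74 for Cdh19 (SE 0.86), 2.69 for Gfra3 (SE 0.77), 2.67 for S100b (SE 0.95), 2.43 for Egfl8 (SE 0.55), 2.21 for Ngfr (SE 0.75), 2.07 for Gldn (SE 0.69), 1.86 for Sox10 (SE 0.72) and 0.97 for Mbp (SE 0.68). The thresholds of the edgeR fit (an adjusted p of 0.05 over all genes and a 2-fold change) were passed by 4 of the 8, and 4.28% of all tested genes passed them upward, a count that the choice of the genes bears on. Cdh19, Gfra3 and Egfl8 had every HFpEF library above every control, and 18.6% of all genes did. Without HFpEF replicate 1, the library with Col2a1, the values were 1.31 for Egfl8, 1.26 for Cdh19, 1.17 for Gfra3, 0.79 for Gldn, 0.62 for S100b, 0.43 for Sox10, 0.36 for Ngfr and -0.05 for Mbp. HFpEF replicates 1 and 3 were the HFpEF libraries without Eif2s3y counts. With HFpEF replicate 2 alone against the controls, all with Eif2s3y, the values were 1.19 for Egfl8, 0.98 for Gfra3, 0.40 for Sox10, 0.25 for Cdh19, -0.09 for Gldn, -0.19 for Mbp, -0.24 for Ngfr and -0.73 for S100b.

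The treatment effect (EMPA + PFD against untreated, 9 weeks) was the other contrast used in choosing the genes. The log2 fold change was negative for all 8: -2.51 for S100b (SE 1.06), -1.64 for Ngfr (SE 0.81), -1.22 for Sox10 (SE 0.74), -0.94 for Egfl8 (SE 0.55), -0.91 for Mbp (SE 0.70), -0.85 for Gldn (SE 0.71), -0.60 for Gfra3 (SE 0.75) and -0.47 for Cdh19 (SE 0.81). The same thresholds were passed by 3.82% of all genes and by 0 of the 8 with edgeR, and by 5.76% of all genes and 1 of the 8 with DESeq2. S100b, Mbp and Ngfr had every treated library below every untreated one, and 18.7% of all genes did. Without untreated replicate 2, the library with Myl4, the value was -1.47 for S100b, -0.78 for Ngfr and -0.54 for Mbp but 0.98 for Cdh19 and 0.23 for Gfra3, and the median over the 8 genes moved from -0.93 to -0.27. The untreated libraries had 0 counts of Eif2s3y and the EMPA + PFD libraries 825 to 999, so the treatment and whatever separates them by this gene cannot be told apart.

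**Figure D3:**
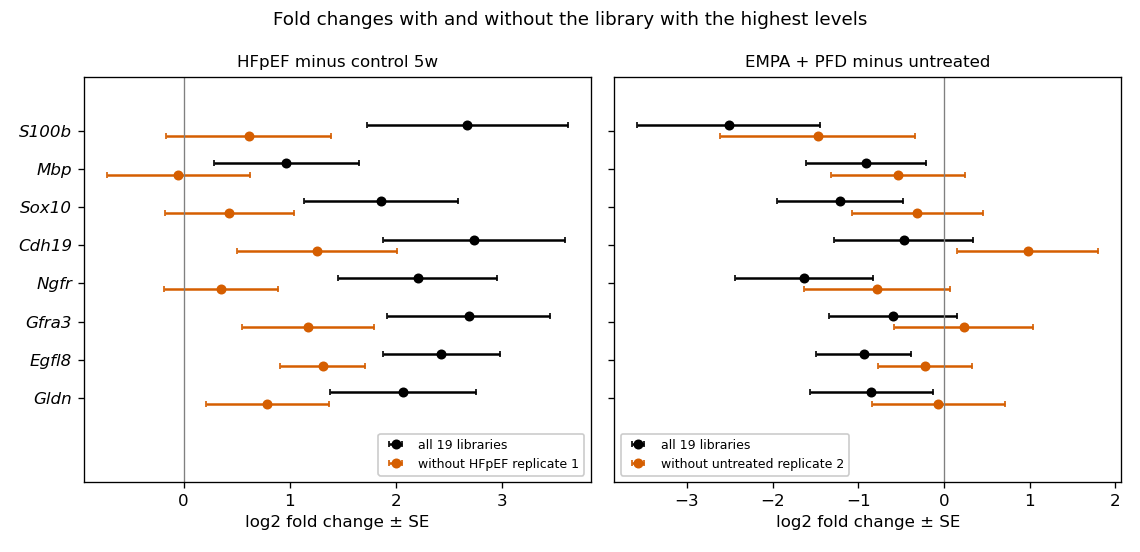
Fitted log2 fold change with its standard error for each of the 8 genes, HFpEF minus control 5w on the left and EMPA + PFD minus untreated on the right, with all 19 libraries (black) and without the library that held the highest sum in the group (orange). On the left all points lie lower without HFpEF replicate 1, that of Mbp just below 0, and on the right Cdh19 and Gfra3 cross 0 without untreated replicate 2.

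The healthy rats were compared over the same 4 weeks (control 9w against control 5w, termed physiological change). Control 5w was the low group of a contrast used in choosing the genes, which bears on the signs and counts here. Gfra3 had a log2 fold change of 1.71 (SE 0.76, adjusted p = 0.0937 by edgeR), Cdh19 1.63 (SE 0.85, adjusted p = 0.146), Egfl8 1.38 (SE 0.55, adjusted p = 0.0622), Mbp 1.27 (SE 0.69, adjusted p = 0.164) and Gldn 1.07 (SE 0.68, adjusted p = 0.240). Sox10 was at 0.32 (SE 0.73), Ngfr at 0.12 (SE 0.76) and S100b at -0.06 (SE 0.96). None was called by edgeR, where 14.7% of all genes were, with 2 at an unadjusted p under 0.05. DESeq2 called 2 of the 8 and 15.8% of all genes, and a fit of these 6 libraries alone called 3 of the 8 and 14.4% of all genes. Cdh19, Gfra3 and Egfl8 did not overlap between the 5- and 9-week controls, 3 of 8 where 24.6% of all genes were higher without overlap. Without the 5 libraries with the most cartilage or atrial counts the median of the 8 genes moved from 1.17 to -0.06, Mbp to -0.61, Sox10 to -0.31 and Ngfr to -0.55, and Egfl8 was at 1.05 and passed the thresholds where 15.4% of all genes did, with control 9w replicate 2 as the 1 library of its group.

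At 9 weeks the untreated HFpEF rats were set against control 9w (untreated consequence). Of the 8 genes 4 had a positive and 4 a negative log2 fold change, from -0.82 for Gldn to 0.89 for S100b, and 0 were called by edgeR, where 0.912% of all genes were, with 0 at an unadjusted p under 0.05 and 0 called by DESeq2. The median of the 8 genes was -0.19, and it was -1.03 without untreated replicate 2 and 0.13 without the 5 libraries with the most cartilage or atrial counts. From HFpEF at 5 weeks to untreated at 9 weeks all 8 log2 fold changes were negative, with a median of -1.49, from -1.85 for S100b (SE 0.91) to -0.26 for Mbp (SE 0.67). Both were the high groups of the contrasts used in choosing the genes, which bears on the sign, so these values describe them. The thresholds were passed by 0 of the 8 and 0.194% of all genes with edgeR, and by 0 of the 8 with DESeq2. The median was 0.19 without HFpEF replicate 1 and -2.44 without untreated replicate 2, with 2 of the 8 and 7.56% of all genes called in the latter fit.

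The disease effect was then compared between the weeks, as the difference of the 9-week and the 5-week contrasts in 1 model. This interaction contains the 5-week contrast by which the genes were chosen, which bears on its sign, and its values describe them. It was negative for all 8, among them Gfra3 (log2 difference -3.24, SE 1.06), Gldn (-2.89, SE 0.96), Egfl8 (-2.84, SE 0.76) and S100b (-1.79, SE 1.32). The thresholds were passed by 3 of the 8, and 5.67% of all genes passed them downward (12.0% either way). Without HFpEF replicate 1 the values were -1.73 for Gfra3, -1.61 for Gldn and -1.72 for Egfl8 and 1 gene passed where 11.3% of all genes did either way, and in a fit of the 12 libraries of these 4 groups alone 0 passed where 8.98% did. Mbp was at 0.96, S100b at -0.30 and Egfl8 at -2.14 without the 5 libraries with the most cartilage or atrial counts.

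For single drugs the untreated group was the reference. It was the high group of a contrast used in choosing the genes, which bears on the signs and counts here. With EMPA alone the median log2 fold change of the 8 genes was 0.23, from -0.13 for Cdh19 to 1.33 for S100b (SE 0.99, adjusted p = 0.771 by edgeR). The S100b value rests on EMPA replicate 2 (30.4 CPM) and was -0.91 without it. With PFD alone all 8 were negative with a median of -1.03, from -2.72 for S100b (SE 1.26, adjusted p = 0.786) to -0.55 for Gldn (SE 0.79, adjusted p = 0.847). S100b and Mbp had both PFD libraries below all untreated ones, 2 of 8 where 12.8% of all genes did. With 2 libraries per drug, edgeR called 0 of 8 in both, where 0.0404% (EMPA) and 0.00807% (PFD) of all genes were called, with 0 and 1 of the 8 at an unadjusted p under 0.05 and 0 called by DESeq2 in both. The interaction of the drugs contains the treatment effect used in choosing the genes, so its values describe them. Its median was -0.32, with 0 of 8 past the thresholds where 0.00807% of all genes passed, and 0 with DESeq2. Without untreated replicate 2 the PFD median moved to -0.22 and the EMPA median to 1.14, and without EMPA replicate 2 the EMPA median moved to -0.34.

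The dual treatment was also set against the state before treatment (HFpEF, 5 weeks). HFpEF was the high group of one contrast used in choosing the genes and EMPA + PFD the low group of the other, so the values describe the 8 genes. The log2 fold change was -4.37 for S100b (SE 1.08), -3.30 for Ngfr (SE 0.82), -2.67 for Gldn (SE 0.72), -2.40 for Egfl8 (SE 0.56), -2.21 for Sox10 (SE 0.75), -2.13 for Gfra3 (SE 0.76), -1.54 for Cdh19 (SE 0.81) and -1.18 for Mbp (SE 0.70). The thresholds were passed by 6 of the 8, and 12.0% of all genes passed them downward and 22.7% either way. All treated libraries lay below all HFpEF libraries in 6 of the 8, and 27.7% of all genes did so. Without HFpEF replicate 1 the value for S100b was -2.31 and for Ngfr -1.45, and 2 of the 8 passed where 16.7% of all genes did. Against HFpEF replicate 2 alone, which had Eif2s3y counts as the treated libraries did, S100b was at -0.96, Ngfr at -0.85, Egfl8 at -1.16 and Cdh19 at 0.95, and 0 passed where 14.2% of all genes did.

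Markers of other cell types moved in the same comparison. By edgeR 5 of 7 leukocyte genes fell and 1 (Ncf1) rose, 4 of 7 fibroblast, 3 of 8 cartilage and bone, 2 of 6 smooth muscle and pericyte (Acta2 and Tagln), 1 of 3 mesothelial (Msln) and 1 of 4 adipocyte genes (Cfd) fell, and 5 of 7 ventricular cardiomyocyte genes, 1 of 7 atrial genes (Kcnj3) and Mitf rose. None of 6 endothelial genes was called. With HFpEF replicate 1 left out, 3 leukocyte, 1 fibroblast, 2 of 6 cartilage and bone, 2 endothelial, 1 adipocyte and 0 smooth muscle genes fell and 2 ventricular genes, Kcnj3 and Mitf rose. Their part in the levels of the 8 genes was not tested.

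Against healthy rats of the same age (control 9w), all 8 genes had negative log2 fold changes with EMPA + PFD, with a median of -1.29. Gldn was at -1.66 (SE 0.71, adjusted p = 0.0852), S100b at -1.63 (SE 1.09, adjusted p = 0.264) and Egfl8 at -1.35 (SE 0.55, adjusted p = 0.0721), and 0 were called by edgeR where 12.1% of all genes were, with 2 at an unadjusted p under 0.05. DESeq2 called 2 of the 8 and 13.1% of all genes, and the fit of these 6 libraries alone called 5 of the 8 and 14.1% of all genes. S100b, Ngfr, Egfl8 and Gldn had all treated libraries below all controls, 4 of 8 where 26.5% of all genes did. EMPA + PFD was the low group of a contrast used in choosing the genes, which bears on these signs and counts, and nothing is read from them. Without the 5 libraries with the most cartilage or atrial counts the median was -0.38, Mbp was at 0.38 and Cdh19 at 0.99, and Egfl8 (-1.04) passed the thresholds where 13.1% of all genes did, again against 1 control 9w library.

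A wider set of 43 Schwann genes in the count files, sorted by role, was examined with the same fit, and 38 of them passed the filter. These lists were chosen with earlier results of these data known, for the cell type of the 8 genes. In the contrasts used for the 8, and in those sharing their groups, counts and p-values are partly set by that choice. Of the 38, 22 were highest in HFpEF replicate 1, where 16.1% of all genes were. At disease establishment 8 of 38 were called up and 0 down, where 4.28% of all genes were called up and 8.69% either way, with a median log2 fold change of 1.61 where that of all genes was 0.02. In myelin genes 2 of 8 rose. Fa2h, which makes myelin lipids, changed by a log2 fold change of 3.47 (SE 0.75, edgeR adjusted p = 0.00780) and Cldn19, a tight junction protein, by 2.44 (SE 0.52, adjusted p = 0.00724). In adhesion genes 3 of 9 rose, namely Lgi4 (2.37, SE 0.77, adjusted p = 0.0432), L1cam (2.35, SE 0.66, adjusted p = 0.0230) and Nfasc (1.58, SE 0.39, adjusted p = 0.0143). Of receptors 1 of 5 rose, Gpr37l1 (2.41, SE 0.80, adjusted p = 0.0468), of other glial genes 2 of 11, Plekha4 (1.77, SE 0.52) and Metrn (1.29, SE 0.37), and of transcription factors 0 of 5. Without HFpEF replicate 1, 3 of 36 tested genes rose (Cldn19, Fa2h and Nfasc) and the median was 0.69. Over the 15 settings of this contrast 3.87% to 20.0% of all genes were called, so nothing is read from that count. With all libraries, in the same contrast, 2 of 6 endothelial (Egfl7 and Vwf), 2 of 3 mesothelial (Msln and Wt1) and 3 of 8 cartilage and bone genes rose, 2 of 7 ventricular genes (Ryr2 and Irx4) and 1 of 7 atrial genes (Kcnj3) fell, and 0 fibroblast, leukocyte and smooth muscle genes were called, and their part was not tested.

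With the dual treatment, 0 of these 38 rose and 1 fell against the untreated group, where 3.82% of all genes were called, with 34 negative and a median of -0.90 where that of all genes was -0.03. The gene was Nfasc, an axon contact protein, at -1.54 (SE 0.38, edgeR adjusted p = 0.0244). Without untreated replicate 2, 0 of 37 were called and the median was -0.11, while Nfasc was at -1.64 (adjusted p = 0.0639), no smaller than with all libraries. Over the 14 settings of this contrast 0.0435% to 12.1% of all genes were called. With all libraries the atrial genes Myl4 (-7.00) and Sln (-8.32) and the endothelial gene Egfl7 (-1.08) were called lower and Kcnj3 (1.65) and the ventricular gene Ryr2 (1.10) higher in the same contrast, and their part was not tested. Against HFpEF at 5 weeks 18 of 38 fell and 1 rose, with a median of -1.59, where 12.0% of all genes fell and 22.7% were called either way. The falls included the myelin genes Pmp22 (-1.82, SE 0.37, edgeR adjusted p = 0.00187), Cnp (-1.81, SE 0.33, adjusted p = 0.00102) and Fa2h (-1.68, SE 0.66, adjusted p = 0.0473) and the transcription factors Pou3f1 (-2.84), Tfap2a (-2.83) and Egr2 (-1.91). They also included the adhesion genes Cntn1 (-4.48), Cadm4 (-2.79) and Nrcam (-2.21), the neuregulin receptor Erbb3 (-2.12) and Ptprz1 (-1.90), and the glial genes Gfap (-4.07), Gap43 (-3.90) and Plekha4 (-2.47). Some of these falls rest on few counts. Pou3f1 had 2 to 25 counts in HFpEF and 1 in each EMPA + PFD library. Tfap2a had 6 to 42 and 1 to 2, and Cntn1 23 to 39 and 0 to 3. The one that rose was Art3 (1.07, SE 0.28, adjusted p = 0.00739). Without HFpEF replicate 1, 6 of 36 fell (Pmp22, Cnp, Cntn1, Plekha4, Gap43 and Nes), 0 rose and the median was -0.55. That is about the share of all genes called in the same fit, given above with the 8 genes, and nothing is read from it.

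In the healthy hearts 5 of these 38 rose and 3 fell between 5 and 9 weeks, 8 of 38 where 14.7% of all genes were called. Fa2h (4.20, SE 0.75, edgeR adjusted p = 0.00107), Cldn19 (3.60, SE 0.51, adjusted p = 3.2e-04) and Mal, a myelin raft protein (2.37, SE 0.67, adjusted p = 0.0141), rose with Nfasc and Nes, while Pmp22 (-1.32, SE 0.37, adjusted p = 0.0132), Ncam1 (-2.64, SE 0.82, adjusted p = 0.0231) and Itgb8 (-1.83, SE 0.47, adjusted p = 0.00901) fell. Cldn19 had 3 to 6 counts in control 5w and 31 to 48 in control 9w, and Fa2h 1 to 3 and 26 to 35, so their starting levels rest on few counts. In the same contrast 5 of 7 fibroblast and 3 of 7 leukocyte genes fell and 4 of 6 endothelial and 3 of 7 atrial genes rose, as did the smooth muscle gene Myh11 (1.33) and the mesothelial gene Wt1 (1.84), while the ventricular gene Irx4 fell (-1.58), and their part was not tested. Without the 5 libraries with the most cartilage or atrial counts, Fa2h, Cldn19 and Nes were higher and Pmp22, Itgb8, Cnp and Zeb2 lower. Some fibroblast, leukocyte and atrial genes, Irx4 and Cfd were also lower, and some endothelial genes, Myh11, Wt1 and Ibsp higher. Control 9w then held 1 library, so nothing is read from how many genes passed the thresholds.

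Against control 9w, EMPA + PFD libraries were lower in 5 and higher in 1 of the 38, where 12.1% of all genes were called, with Fa2h at -2.41 (SE 0.66, adjusted p = 0.0125), Nes at -1.85 (SE 0.28, adjusted p = 6.9e-04), Mal at -1.85 (SE 0.66, adjusted p = 0.0420), Cldn19 at -1.42 (SE 0.45, adjusted p = 0.0245) and Nfasc at -1.09 (SE 0.39, adjusted p = 0.0414), while Itgb8 was higher (1.70, SE 0.48, adjusted p = 0.0143). In the same contrast 4 of 6 endothelial genes (Pecam1, Cdh5, Tie1 and Egfl7), 5 of 7 atrial genes and Wt1 (-1.09) were lower and Kcnj3 (1.25) and Ryr2 (1.34) higher, and their part was not tested. Fa2h (-2.82), Nes (-2.25) and Itgb8 (2.06) were also called without the 5 libraries with the most cartilage or atrial counts, where Mal was at -0.13, the same 4 endothelial genes and Wt1 were lower, and Kcnj3 and Ryr2 higher. In the disease by week interaction 4 of the 38 were called, all negative, namely Fa2h (-4.72, edgeR adjusted p = 0.00566), Cldn19 (-3.65, adjusted p = 0.00365), Nes (-1.90, adjusted p = 0.00501) and Prx (-1.02, adjusted p = 0.0232), where 12.0% of all genes were called. The interaction was also called negative in 2 of 3 mesothelial, 2 of 6 endothelial and 1 of 8 cartilage and bone genes and positive in 2 of 7 ventricular, 1 of 7 atrial and 1 of 6 smooth muscle and pericyte genes, and their part was not tested. In the untreated consequence, with EMPA alone and with PFD alone, 0 of the 38 were called, where 0.912%, 0.0404% and 0.00807% of all genes were.

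**Figure D4:**
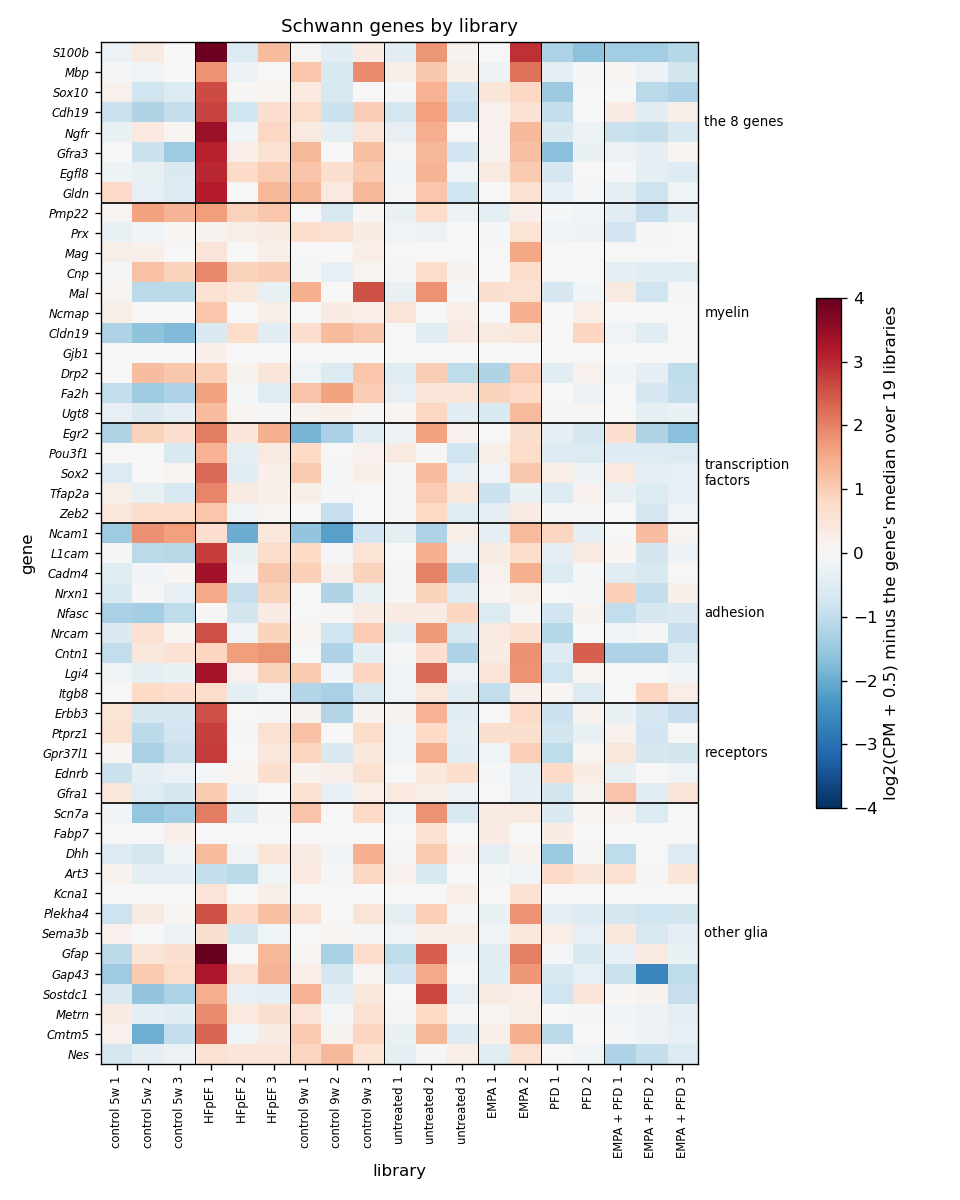
Heat map of the 8 genes and 43 other Schwann genes (rows, grouped by role) in the 19 libraries (columns, by group), coloured by log2(CPM + 0.5) minus the gene's median over the libraries. The HFpEF replicate 1 column is raised across most rows, and 22 of the 38 tested other Schwann genes had their highest level there.

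The ligands and partners of the receptors were tested next, 10 genes in all. At disease establishment and with the dual treatment against untreated, 0 of 10 were called, where 8.69% and 3.82% of all genes were. The medians were 0.46 and -0.10. Against HFpEF, 4 of 10 were called where 22.7% of all genes were. EMPA + PFD libraries were higher in Bdnf, a neurotrophin that binds Ngfr (2.07, SE 0.43, edgeR adjusted p = 0.00209), and S100a1, the cardiomyocyte relative of S100b (1.12, SE 0.20, adjusted p = 8.6e-04), and lower in Ntrk3, a neurotrophin receptor (-2.32, SE 0.81, adjusted p = 0.0290), and Nrg1, the neuregulin that acts on Schwann cells (-2.95, SE 1.10, adjusted p = 0.0395). Bdnf was at 1.87 and still called without HFpEF replicate 1, while S100a1 (0.94), Ntrk3 (-1.14) and Nrg1 (-2.41) were not. Against control 9w Bdnf was higher (1.81, adjusted p = 0.00609) and Nrg1 lower (-3.65, adjusted p = 0.0215), and without the 5 libraries with the most cartilage or atrial counts Bdnf was at 1.86 and Nrg1 at 0.09. In the disease by week interaction Bdnf was at 1.93 (adjusted p = 0.0361) and Nrg1 at -5.19 (adjusted p = 0.0245), and without the 5 libraries Bdnf was at 2.21 and called and Nrg1 at -4.39 and not called (adjusted p = 0.102). Nrg1 was highest in control 9w replicate 3 (26.0 CPM). Ret, the signalling partner of Gfra3, was at 0.17 (SE 0.29, adjusted p = 0.651) with EMPA + PFD against HFpEF, and its ligand artemin, Artn, at -0.42 (SE 0.58, adjusted p = 0.571).

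Of 20 neuronal genes in the count files 10 were tested, and the noradrenergic enzyme Th had at most 3 counts in any library. Gal, a nerve peptide, varied from 0 to 520 counts and was highest in control 9w replicate 3 (520), HFpEF replicate 1 (333) and control 9w replicate 1 (300). At disease establishment Gal (log2 fold change 5.97, edgeR adjusted p = 0.0317) and Npy, a sympathetic peptide (2.82, adjusted p = 0.0247), rose and Ddc, an amine-synthesis enzyme, fell (-1.96, adjusted p = 0.00986). Ddc was at -1.58 and still called without HFpEF replicate 1, while Gal (4.72) and Npy (1.56) were not. In the healthy hearts Gal (7.33, adjusted p = 0.00731) and Npy (3.11, adjusted p = 0.00935) rose and Tubb3, a neuronal tubulin, fell (-2.28, adjusted p = 0.00325), and without the 5 libraries Tubb3 (-3.41) was called and Gal (1.82) and Npy (2.62) were not. With EMPA + PFD against HFpEF, Tubb3 (-2.32, adjusted p = 0.00251) and Prph, an intermediate filament of peripheral neurons (-1.399, adjusted p = 0.00272), fell and Ddc rose (1.89, adjusted p = 0.00415), and all 3 were called without HFpEF replicate 1 too. In the disease by week interaction Gal was at -11.67 (adjusted p = 0.00597), Npy at -4.40 (adjusted p = 0.0130) and Ddc at 2.87 (adjusted p = 0.00760). Without the 5 libraries Ddc (3.03) was called and Gal (-10.36, adjusted p = 0.110) and Npy (-2.92, adjusted p = 0.111) were not.

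The genes whose levels followed S100b most closely over the 19 libraries were, by Pearson r of log2 CPM, Gli1 (0.96), Ngfr (0.94), Wwp2 (0.93), Plekha4 (0.91) and Rell2 (0.91), out of 12387. Gli1 is a transcription factor of hedgehog signalling. It ranged from 0.720 to 20.8 CPM, with a median of 2.00. The other members ranked 140th for Egfl8 (r = 0.80), 210th for Sox10 (0.77), 354th for Mbp (0.74), 380th for Gldn (0.74), 501st for Gfra3 (0.72) and 1041st for Cdh19 (0.64). The libraries share conditions and tissue composition, and without HFpEF replicate 1 and EMPA replicate 2, the 2 farthest from the S100b median, r was 0.91 for Ngfr, 0.89 for Gli1 and 0.39 to 0.63 for the other 6 members. Among the 7 other members the 21 pairs had r from 0.66 to 0.93 over all 19 libraries, with a median of 0.81. Without the same 2 libraries r was 0.51 to 0.87, with a median of 0.65. The members were chosen as genes whose counts moved with S100b, which bears on their ranks and on these values.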

How the data were processed

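The authors deposited 1 table of raw gene counts per library: reads trimmed with Trim Galore were aligned to rn6 with HISAT2 and counted with htseq-count, and the version and strand setting are not given in the sources used here. The counts of 17455 symbols were analysed in R 4.3.3 with edgeR 4.0.16 (TMM scaling, filterByExpr, 12388 genes, 1 quasi-likelihood model over 19 libraries in 7 groups). Genes were called at a Benjamini-Hochberg adjusted p of 0.05 over all tested genes and a log2 fold change of at least 1. The study used DESeq2, here an alternative (run in version 1.42.0), with other scalings, no filter, a replicate block and each library left out. Group labels came from the sample titles, the scripts were tested on simulated data, and no pair of replicates agreed within sampling noise (chi-square per degree of freedom of at least 7.05). The labels name replicates as biological, and p-values measure the spread between these hearts. Correlations used log2 CPM with a prior count of 2. The genes named were the 8 members, of each other Schwann, partner and neuron list called genes (at most 3 rises and 3 falls), and the 5 genes most like S100b, with marker genes where their list is described. The members and lists were chosen with earlier results of these data known. Of the myelin list, 2 genes are not reported here.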

Additional observations from a re-analysis of the deposited data

Results flagged for a closer look

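In the disease by week interaction of the edgeR fit, 3 of the 8 genes passed the thresholds: Gfra3 with a log2 difference of -3.24, Egfl8 with -2.84 and Gldn with -2.89. Of all genes 5.67% were called downward and 12.0% either way. The interaction contains the 5-week contrast by which the genes were chosen, so these values describe them and do not test whether the disease effect differed. Without HFpEF replicate 1, which held many cartilage counts, the differences were -1.73, -1.72 and -1.61 and 1 of the 8 and 11.3% of all genes were called, and a fit of the 12 libraries compared called 0 of the 8 and 8.98% of all genes. In each of the 3 the HFpEF mean was higher than that of control 5w and the untreated mean lower than that of control 9w. Control 9w replicates 1 and 3, which held many atrial counts, also enter this difference, and the part of atrial tissue in it was not tested.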

How the results depend on the processing

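The number of the 8 genes called at disease establishment was 4, with 8.69% of all genes called, and it became 7 with DESeq2 (10.3% of all genes), 2 with a replicate block (7.52%), 0 with only the 6 compared libraries (3.87%), 1 without the 5 libraries with the most cartilage or atrial counts (7.77%), 0 without the 2 HFpEF libraries with 0 counts of Eif2s3y (6.47%, both chosen after seeing the data) and 1 to 6 when libraries were left out 1 at a time (5.90% to 9.00%). For the treatment effect the 0 (3.82%) became 1 with DESeq2 (5.76%). For control 9w against control 5w the 0 (14.7%) became 2 with DESeq2 (15.8%), 3 with only the compared libraries (14.4%) and 1 without the 5 libraries (15.4%). For EMPA + PFD against control 9w the 0 (12.1%) became 2 (13.1%), 5 (14.1%) and 1 (13.1%) under these settings. For EMPA + PFD against HFpEF the 6 (22.7%) became 3 without the 5 libraries (17.6%), 0 without the 2 HFpEF libraries (14.2%) and 2 to 7 when libraries were left out (16.3% to 24.0%). For untreated against HFpEF the range was 0 to 2 (0.0325% to 7.56%). For the disease by week interaction the 3 (12.0%) became 1 with a replicate block (10.2%), 0 with only the compared libraries (8.98%), 1 without the 5 libraries (16.8%) and 0 to 4 when libraries were left out (7.08% to 18.2%).

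Directions turned when libraries were left out. With 1 left out at a time the log2 fold change ranged from -0.049 to 1.32 for Mbp at disease establishment, from -0.87 to 0.98 for Cdh19 and -0.96 to 0.23 for Gfra3 in the treatment effect, from -1.62 to 0.46 for Cdh19 and -0.93 to 0.23 for Gldn with PFD alone, and from -0.072 to 0.37 for Ngfr and -0.27 to 0.13 for S100b between the controls, from -2.90 to 0.21 for S100b and -0.64 to 0.75 for Mbp for untreated against HFpEF, from -0.16 to 1.27 for S100b for untreated against control 9w, and from -0.91 to 2.38 for S100b and -0.55 to 1.31 for Cdh19 with EMPA alone. Without the 5 libraries it was -0.027 for Mbp at disease establishment, 0.96 for Cdh19 and 0.21 for Gfra3 in the treatment effect, -0.61 for Mbp, -0.31 for Sox10 and -0.55 for Ngfr between the controls, 0.35 for Mbp for untreated against HFpEF, 1.09 for Cdh19 with EMPA alone, 0.46 for Cdh19 and 0.23 for Gldn with PFD alone, and 0.38 for Mbp and 0.99 for Cdh19 for EMPA + PFD against control 9w. Without the 2 HFpEF libraries it was -0.73 for S100b, -0.19 for Mbp, -0.24 for Ngfr and -0.094 for Gldn at disease establishment, and 0.95 for Cdh19 for EMPA + PFD against HFpEF. The median of the 8 genes without the 5 libraries was -0.063 between the controls and 0.13 for untreated against control 9w. With 1 library left out it ranged from -2.44 to 0.19 for untreated against HFpEF, -1.03 to 0.24 for untreated against control 9w, -0.34 to 1.14 with EMPA alone and -1.16 to 0.48 for the drug interaction. A group left with 1 library was assumed to vary like the others. The cause of these shifts was not tested.

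Same-numbered libraries did not deviate together as a set (52 pairs, r from -0.53 to 0.49, median -0.07, 11 above 0.1). These r values share libraries and come from groups of 2 or 3, so they cannot exclude that the numbers pair some hearts. The main fit used no pairing. With 2 or 3 libraries a group, and 8 to 13 counts of S100b in those given PFD, small differences were not detectable.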
